A study of Mus musculus with 3 samples.

Results

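The nuclear genes of oxidative phosphorylation were followed through 3 droplet-based 3' single-cell RNA libraries of mouse CD8 T cells. Members were all listed genes whose symbol begins with Nduf, Uqcr, Sdha to Sdhd, Cox4 to Cox8 or Atp5, pseudogenes left out. The rule found 97 gene IDs with 96 symbols among 31053 genes: 44 for complex I, 8 for complex II, 8 for complex III, 20 for complex IV and 17 IDs for complex V. Atp5o is listed under 2 overlapping IDs, 1 of which held no count. Measured values played no part in the rule. The cells were P14 cells, whose transgenic T cell receptor sees peptide GP33-41 of LCMV on H-2Db, from C57BL/6 mice of WT genotype. The TdLN library is from tumour-draining lymph node and the PBMC library from the blood of mice bearing B16.Gp, a melanoma line that expresses the LCMV glycoprotein. Naive P14 cells with a TCF-1-GFP reporter were given to these mice 8 days after the tumour, and both libraries were made on day 16 after that transfer from cells sorted as CD45.1+CD44+CD8. Memory cells were taken on day 200 after acute LCMV infection and were sorted as CD45.1+CD44+KLRG1-CD127+CD62L+CD8. Neither the tissue that gave the memory library nor how many mice went into each library is stated, and the tumour-infiltrating cells that the design names were not analysed here.

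Oxidative phosphorylation makes most of the ATP of a resting cell. Complexes I and II pass electrons from NADH and succinate to ubiquinone, complex III hands them to cytochrome c, complex IV reduces oxygen, and the proton gradient built on the way drives the ATP synthase, complex V. Most subunits are encoded in the nucleus and imported. A few subunits of complexes I, III, IV and V are encoded by mitochondrial DNA, so both genomes have to supply the same complexes. CD8 T cells are known to build respiratory capacity when activated, and memory cells are known for a reliance on oxidative metabolism.

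With 1 library per group, differences between groups could not be tested. Levels are in CPM (reads counted once per unique molecular identifier, UMI, and scaled to a common total over the kept cells of a library), with exact Poisson 95% intervals in the figures where drawn. Ratios carry exact conditional binomial 95% intervals. Both cover counting error only, not the spread between animals. After cells with under 500 genes or over 10% mt- encoded counts were removed, 6265 TdLN, 5652 PBMC and 7003 memory cells remained, with medians of 9674, 7085 and 9956 UMIs and 69537836, 48987260 and 70116366 counts. All 9 T cell markers were present in each library, at a summed 6362, 6578 and 5359 CPM in TdLN, PBMC and memory. The libraries differed in Gm42418, a transcript that overlaps ribosomal RNA, which took 0.0761%, 2.47% and 3.79% of counts in TdLN, PBMC and memory. Between 11 and 17 barcodes were shared by any pair of libraries.

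The members together reached 19188 CPM in TdLN and 19568 CPM in PBMC, against 17245 CPM in memory. TdLN was thus 1.11-fold above memory (95% interval 1.11 to 1.12), PBMC was 1.13-fold above memory (1.13 to 1.14), and TdLN stood 1.02-fold below PBMC. The order of TdLN and PBMC depended on the cells kept, with a log2 ratio of TdLN over PBMC of -0.028 here, 0.039 at a limit of 5% mt- encoded counts and 0.077 without effector cells. The 13 mt- encoded genes followed another order, with 53329 CPM in TdLN, 45306 CPM in PBMC and 49086 CPM in memory. They were 1.09-fold higher in TdLN than in memory and 1.08-fold lower in PBMC than in memory. For each mt- encoded count there were 0.360 nuclear counts in the TdLN library, 0.432 in the PBMC library and 0.351 in the memory library. This balance of the 2 genomes depended on the cells kept. TdLN over PBMC was 0.833 here and 0.970 at the limit of 5%, TdLN over memory 1.02 and 1.16, and PBMC over memory 1.23 and 1.20. Among cells of 10000 to under 20000 UMIs there were 0.355 nuclear counts per mt- encoded count in TdLN, against 0.389 in PBMC and 0.356 in memory. At 5000 to under 10000 UMIs the values were 0.298, 0.491 and 0.346 in TdLN, PBMC and memory. At 2000 to under 5000 UMIs they were 0.338, 0.511 and 0.324. Scaling moves the TdLN values. With trimmed mean (TMM) scaling the median log2 ratio of all genes in TdLN over memory was 0.0040 in place of 0.17. The 0.17 is the unscaled median of all genes tested, against which unscaled ratios of single genes can be set. Under TMM the nuclear log2 ratio was 0.0020 for TdLN and 0.17 for PBMC, each over memory, and -0.17 for TdLN over PBMC, and the mt- encoded ratio of TdLN over memory turned to -0.032.

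**Figure D1:**
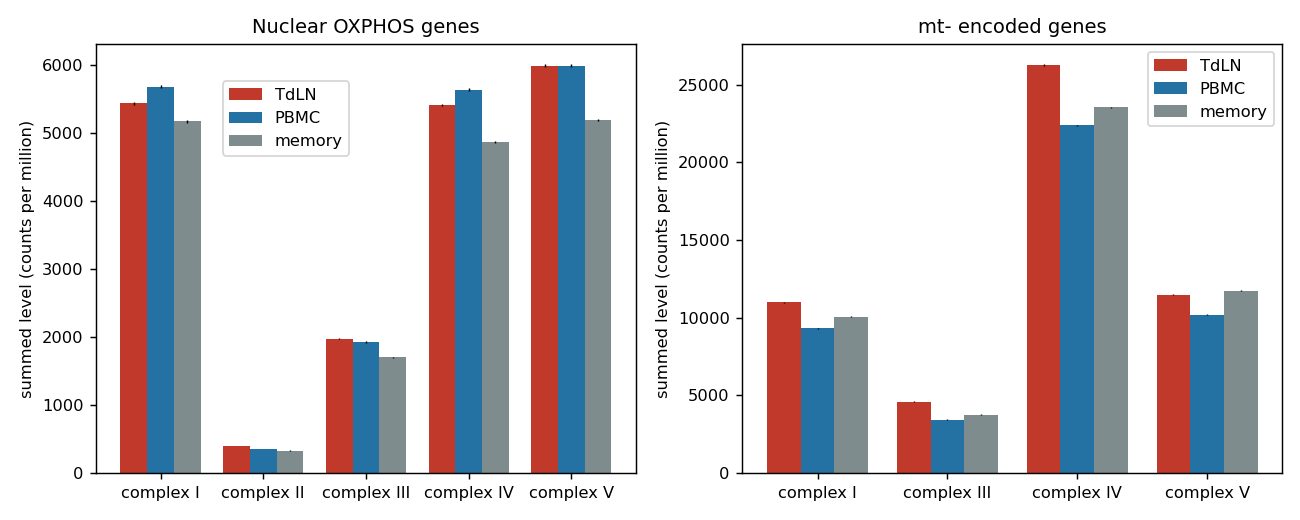
Summed levels of the nuclear genes (left) and mt- encoded genes (right) of each complex in CPM, for TdLN, PBMC and memory; error bars are exact Poisson 95% intervals of the counts, and both axes start at 0. All 5 nuclear sums were lowest in memory, and complex III among the mt- encoded genes was highest in TdLN, at 4596 CPM in TdLN, 3438 CPM in PBMC and 3754 CPM in memory.

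Of the 97 IDs, 82 reached 20 CPM in the higher library in every comparison. A member counted as higher or lower when the larger of both values exceeded the smaller by at least 25%. In TdLN over memory, 23 of the 82 were higher and 2 were lower, where 32.2% of all 4647 genes tested were higher and 11.1% lower. The members' median log2 ratio was 0.15, beside 0.17 for all genes tested. At 1.5-fold, 5 members were higher and 0 lower, beside 12.7% and 5.23% of all genes. With TMM scaling 9 were higher and 4 lower at 25%, where 18.5% and 19.3% of all genes were. In PBMC over memory, 7 of 82 members were higher and 1 was lower, where 14.7% and 10.7% of 4384 genes were. A ratio above 1 was seen for 70 of the 82 members and for 2509 of the 4384 genes. The members' median log2 ratio was 0.17 and that of all genes 0.046. At 1.5-fold 0 members were higher and 0 lower, where 4.47% and 3.63% of all genes were. When each cell had equal weight, 21 members were higher, where 24.7% of all genes were. In TdLN over PBMC, 9 members were higher and 3 lower, where 27.6% and 10.6% of 4606 genes were, with medians of 0.040 for members and 0.12 for all genes. At 1.5-fold 0 were higher and 0 lower, where 10.4% and 4.17% of all genes were. This split turned with the scaling, to 2 higher and 11 lower with TMM (16.0% and 18.9% of all genes) and to 1 higher and 15 lower with equal weight per cell (20.3% and 18.6%).

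**Figure D2:**
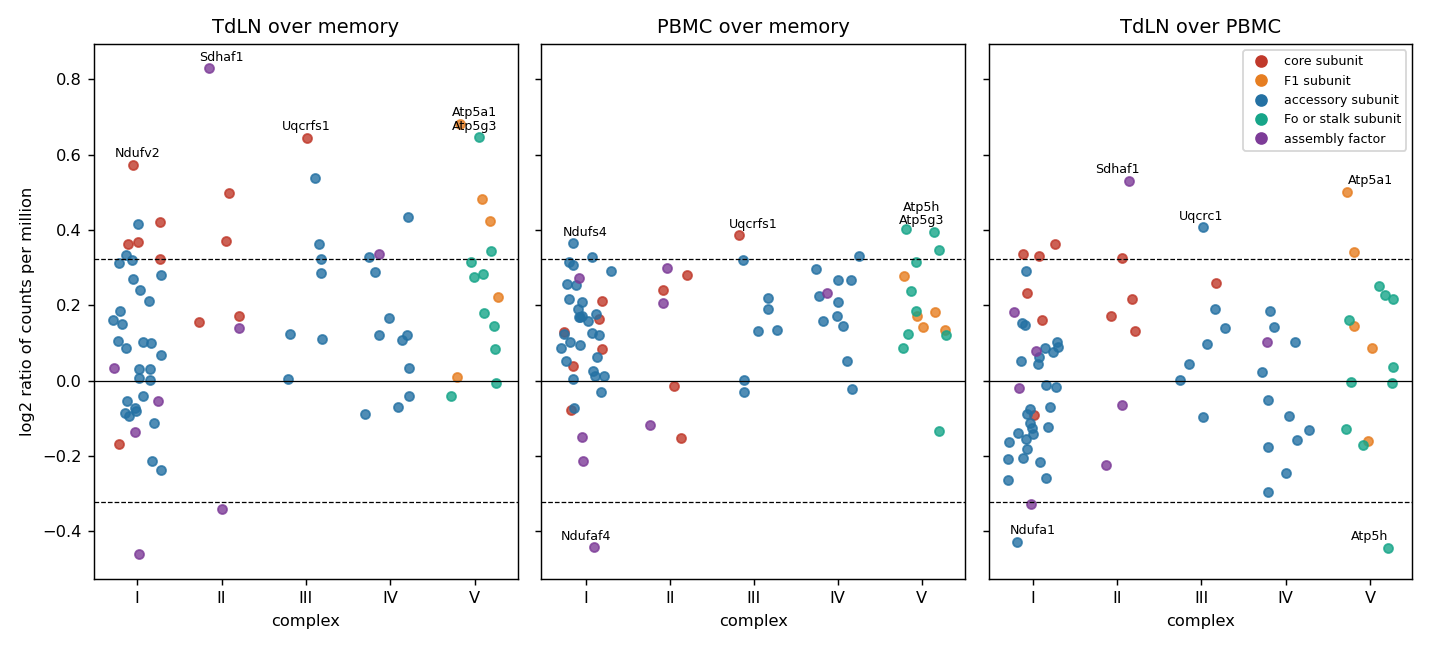
The log2 ratio of CPM of each tested member, by complex, for TdLN over memory, PBMC over memory and TdLN over PBMC; each point is 1 gene ID (81 of the 82 are shown), colours give its role, dashed lines mark a 25% difference and the 5 shown members farthest from 0 are named. Core subunits sit high in TdLN over memory, with Ndufv2 at 0.57 and Uqcrfs1 at 0.64, and PBMC over memory spans a narrower range, from -0.44 to 0.40.

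In complex I, the sum of TdLN over memory had a log2 ratio of 0.072 that changed sign in 8 of 13 other settings, to -0.080 with TMM. Its 7 tested core subunits and 29 tested accessory subunits had different ratios. Core subunits carry the flavin, the iron-sulphur clusters and the quinone site. They summed to 568 CPM in TdLN, 484 CPM in PBMC and 448 CPM in memory, which put TdLN 1.27-fold above memory (log2 ratio 0.34, 95% interval 0.32 to 0.36). The accessory subunits, which frame and stabilise the core, summed to 4659, 4995 and 4500 CPM in TdLN, PBMC and memory, a TdLN to memory ratio of 1.04. In TdLN over memory 6 of 7 core subunits were higher by 25%, against 2 of 29 accessory subunits, Ndufc2 and Ndufb8, where 32.2% of all genes were. Without the cells of 3 or more cell division UMIs described further on, 2 of 7 core and 0 of 29 accessory subunits were higher, where 25.1% of all genes were.

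Ndufv2, which holds an iron-sulphur cluster next to the NADH site, had 119 CPM in TdLN, 92.9 CPM in PBMC and 80.2 CPM in memory, thus 1.49-fold higher in TdLN than in memory. Ndufs1, the largest core subunit, had 28.7 CPM in TdLN, 22.8 CPM in PBMC and 22.2 CPM in memory. Ndufs8, also an iron-sulphur protein, had 77.1, 61.0 and 57.6 CPM in TdLN, PBMC and memory. Ndufs7 was the exception among the core genes, with 103 CPM in TdLN, 110 CPM in PBMC and 116 CPM in memory.

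Ndufa13, the accessory subunit with the most counts, had 343 CPM in TdLN, 399 CPM in PBMC and 343 CPM in memory, so TdLN and memory differed by less than the counting interval (ratio 0.983 to 1.02). Ndufa1, a small membrane subunit, was at 190 CPM in TdLN, 256 CPM in PBMC and 206 CPM in memory, thus 1.35-fold lower in TdLN than in PBMC. Ndufa6 followed the same order with 263 CPM in TdLN, 316 CPM in PBMC and 273 CPM in memory. For these 3 genes PBMC was the highest library. Ndufs4, whose loss causes mitochondrial encephalomyopathy in mice, had 89.9 CPM in TdLN, 107 CPM in PBMC and 83.5 CPM in memory, thus 1.29-fold higher in PBMC than in memory (1.24 to 1.34). Ndufb4 (129 CPM in TdLN, 149 CPM in PBMC and 153 CPM in memory) and Ndufa5 (109, 120 and 126 CPM in TdLN, PBMC and memory) were lowest in TdLN, short of 25%.

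The 8 complex I assembly factors were low, from 6.43 to 80.1 CPM, and 4 of them reached 20 CPM. Ndufaf4 (mm10 chr4:24898083-24905001), needed for an early step of assembly, had 41.0 CPM in TdLN and 41.6 CPM in PBMC, against 56.5 CPM in memory. It was 1.38-fold lower in TdLN (1.31 to 1.45) and 1.36-fold lower in PBMC than in memory, the only one of the 82 members tested called lower in both. Ndufaf8 had 72.8 CPM in TdLN, 69.0 CPM in PBMC and 80.1 CPM in memory.

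The 250 bases before the annotated start are printed for Ndufaf4, which was lower in TdLN and PBMC, and for Ndufv2 and Atp5g3, which were higher in TdLN than in memory. They are RefSeq sequences on GRCm38.p6, 5′ to 3′ on the strand of the gene: chr4:24897833-24898082 on the plus strand for Ndufaf4, chr17:66101560-66101809 on the minus strand for Ndufv2 and chr2:73911327-73911576 on the minus strand for Atp5g3. Capitals mark a match to the NRF1 motif, and these windows overlap no annotated exon.
Ndufaf4: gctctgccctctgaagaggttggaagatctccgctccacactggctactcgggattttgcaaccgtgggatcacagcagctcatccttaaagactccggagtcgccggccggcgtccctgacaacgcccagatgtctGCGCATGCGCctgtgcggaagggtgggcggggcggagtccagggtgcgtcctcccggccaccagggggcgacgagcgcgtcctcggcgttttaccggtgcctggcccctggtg
Ndufv2: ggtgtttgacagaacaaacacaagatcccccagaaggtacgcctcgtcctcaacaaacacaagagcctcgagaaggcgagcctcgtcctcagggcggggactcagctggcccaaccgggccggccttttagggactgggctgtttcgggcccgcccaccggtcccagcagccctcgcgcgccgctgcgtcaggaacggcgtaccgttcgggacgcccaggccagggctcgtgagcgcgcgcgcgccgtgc
Atp5g3: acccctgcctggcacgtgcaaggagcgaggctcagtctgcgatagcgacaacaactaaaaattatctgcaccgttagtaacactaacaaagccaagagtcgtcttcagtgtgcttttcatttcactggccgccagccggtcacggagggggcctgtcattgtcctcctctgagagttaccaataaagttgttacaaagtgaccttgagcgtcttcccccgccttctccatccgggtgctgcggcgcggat
Motifs were searched in the 300 bases from 250 before to 50 after the start, on both strands. The search covered the 80 members and all 27025 genes with a RefSeq promoter. The other 17 member IDs were not matched to a promoter, among them the second ID of Atp5o. The NRF1 motif, GCGC followed by any base and then TGCGC, bound by a factor known for respiratory genes, was found in 20 of 80 member promoters (25%) and in 4.78% of all. The ETS motif CCGGAAG, the kind bound by GABPA, was likewise in 20 of 80 and in 9.12% of all, and the YY1 motif AAGATGGCG in 7 of 80 and in 1.49% of all. At least 1 of the motifs stood in 40 member promoters (50%) and in 14.04% of all promoters. Of the windows printed, Ndufaf4 holds an NRF1 match that begins 113 bases before the start. Ndufv2 and Atp5g3 hold none of the motifs before the start, and Atp5g3 has an NRF1 match in the 50 bases after it. A match of letters is a description and says nothing of binding in these cells.

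Complex II, succinate dehydrogenase, is wholly nuclear and also a step of the citrate cycle. Its 8 genes summed to 395 CPM in TdLN, 352 CPM in PBMC and 328 CPM in memory. The 4 subunits had a log2 ratio of 0.32 in TdLN over memory, and were 1.09-fold higher in PBMC than in memory. Sdhb, the iron-sulphur subunit, had 102 CPM in TdLN, 87.4 CPM in PBMC and 71.9 CPM in memory, a TdLN to memory ratio of 1.41. Sdhd, a membrane anchor, had 62.4, 56.9 and 48.2 CPM in TdLN, PBMC and memory, whereas the flavoprotein Sdha had 84.2, 74.7 and 75.5 CPM. The assembly factors went opposite ways in TdLN. Sdhaf1, which helps to load the clusters of Sdhb, was singled out after its values were seen, as it lies under the 50 CPM that the rule for named genes sets. It had 34.8 CPM in TdLN, 24.1 CPM in PBMC and 19.6 CPM in memory, and its 1.78-fold ratio (1.66 to 1.90) in TdLN over memory was the highest of the 82 members tested. Sdhaf4, which acts on Sdha, had 33.3 CPM in TdLN, 38.9 CPM in PBMC and 42.2 CPM in memory, thus 1.27-fold lower in TdLN than in memory.

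All 8 nuclear genes of complex III had TdLN to memory ratios above 1, where 3169 of all 4647 genes tested did. The 8 genes summed to 1972 CPM in TdLN, 1924 CPM in PBMC and 1698 CPM in memory. Uqcrfs1 (mm10 chr13:30540308-30545362), the Rieske iron-sulphur protein and a catalytic nuclear subunit of the complex, had 131 CPM in TdLN, 110 CPM in PBMC and 84.0 CPM in memory. It was 1.56-fold higher in TdLN (1.51 to 1.62) and 1.31-fold higher in PBMC than in memory. Uqcrc1, a matrix-side core protein without a redox group, is counted here as an accessory subunit. It had 82.3 CPM in TdLN, 62.1 CPM in PBMC and 56.7 CPM in memory, thus 1.45-fold higher in TdLN than in memory. Uqcrh, the hinge protein that helps cytochrome c to dock, held the most counts, with 736 CPM in TdLN, 788 CPM in PBMC and 676 CPM in memory. Uqcr11, the smallest subunit, hardly moved, at 192, 192 and 191 CPM in TdLN, PBMC and memory.

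For complex IV the rule finds 20 nuclear genes, which include Ndufa4, now known as one of its subunits, and Cox7a2l, counted here as an assembly factor. They summed to 5406 CPM in TdLN, 5633 CPM in PBMC and 4867 CPM in memory, so PBMC was 1.16-fold above memory (1.15 to 1.16) and TdLN 1.11-fold. Of the 12 that reached 20 CPM, 11 had a PBMC to memory ratio above 1, where 2509 of all 4384 genes tested did. Cox8a held the most counts, with 736 CPM in TdLN, 822 CPM in PBMC and 683 CPM in memory. Cox5b, which binds zinc, had 352 CPM in TdLN, 328 CPM in PBMC and 261 CPM in memory, thus 1.35-fold higher in TdLN and 1.26-fold higher in PBMC than in memory. Cox7a2l had 588, 548 and 466 CPM in TdLN, PBMC and memory, 1.26-fold higher in TdLN than in memory. Cox7c went the other way, with 544 CPM in TdLN, 667 CPM in PBMC and 571 CPM in memory, thus 1.23-fold lower in TdLN than in PBMC.

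The 8 tissue isoforms of complex IV, known mainly from heart, skeletal muscle, lung, testis or hypoxic cells, summed to 2.66 CPM in TdLN, 2.37 CPM in PBMC and 1.48 CPM in memory. Cox7b2, Cox8b, Cox8c and Ndufa4l2 had no count in any library, which allows levels up to 0.0431 CPM in TdLN, 0.0612 CPM in PBMC and 0.0428 CPM in memory, the value of 3 counts per library. Cox7a1, the heart and muscle form, had 76 counts in TdLN, against 27 in PBMC and 28 in memory, or 1.09, 0.551 and 0.399 CPM. Cox4i2, the lung form, had 24 counts in TdLN, against 0 in PBMC and 1 in memory. Cox6b2, the testis form, had 63, 70 and 57 counts, and Cox6a2, the muscle form, 22, 19 and 18 counts in TdLN, PBMC and memory. The ubiquitous partners Cox4i1, Cox6a1, Cox6b1, Cox7a2 and Cox8a were all far higher, the lowest value being 191 CPM for Cox6a1 in TdLN.

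The ATP synthase held the most nuclear counts, 5985 CPM in TdLN, 5983 CPM in PBMC and 5186 CPM in memory, thus 1.15-fold above memory in both. The parts of the enzyme differed. The 5 F1 subunits, which form the catalytic head, were 1.20-fold higher in TdLN than in memory (1.19 to 1.21) and 1.06-fold higher than in PBMC. The 11 Fo or stalk IDs were 1.13-fold higher in TdLN than in memory and 1.03-fold lower than in PBMC. Atp5a1, the alpha subunit, had 307 CPM in TdLN, 217 CPM in PBMC and 191 CPM in memory, thus 1.60-fold higher in TdLN than in memory (1.57 to 1.64) and 1.42-fold higher than in PBMC (1.38 to 1.45). The catalytic beta subunit Atp5b had 425, 335 and 304 CPM in TdLN, PBMC and memory. Atp5e, the small epsilon subunit and the member with the most counts, had 869 CPM in TdLN, 972 CPM in PBMC and 863 CPM in memory, within counting error between TdLN and memory (0.995 to 1.02).

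The 3 genes for subunit c encode the same mature rotor protein and differ in their import sequence, and they did not move together. Atp5g3 had 228 CPM in TdLN, 191 CPM in PBMC and 146 CPM in memory, thus 1.56-fold higher in TdLN and 1.31-fold higher in PBMC than in memory. Atp5g2 had 583 CPM in TdLN, 498 CPM in PBMC and 469 CPM in memory, and Atp5g1 had 291 CPM in TdLN, 251 CPM in PBMC and 275 CPM in memory. Atp5g1 was 1.10-fold lower in PBMC than in memory while Atp5g3 was higher. Atp5h (mm10 chr11:115415689-115419962), the stalk subunit d, had the highest PBMC to memory ratio of the 82 members tested, with 574 CPM in TdLN, 781 CPM in PBMC and 591 CPM in memory. It was 1.32-fold higher in PBMC than in memory (1.30 to 1.34) and 1.36-fold lower in TdLN than in PBMC, the lowest TdLN to PBMC ratio of all members tested. Atp5h, Atp5g1 and Atp5g2 each have at least 1 pseudogene that shares 75 bases with the transcript end, so a part of their reads may have been lost or split.

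The 13 mt- encoded genes did not move as a block. Cytochrome b (mt-Cytb), the mitochondrial partner of Uqcrfs1, had 4596 CPM in TdLN, 3438 CPM in PBMC and 3754 CPM in memory, a log2 ratio of 0.29 in TdLN over memory and 0.42 in TdLN over PBMC. mt-Nd4 had 3152 CPM in TdLN, 2185 CPM in PBMC and 2547 CPM in memory. mt-Nd5, in contrast, had 436 CPM in TdLN, 497 CPM in PBMC and 569 CPM in memory, a log2 ratio of -0.38 in TdLN over memory, and mt-Nd2 had 3071, 2901 and 3520 CPM. The oxidase genes mt-Co1 (8091, 7112 and 7128 CPM in TdLN, PBMC and memory), mt-Co2 (7797, 7154 and 7053 CPM) and mt-Co3 (10382, 8126 and 9353 CPM) were highest in TdLN.

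The ATP synthase genes of the mitochondrial genome showed the widest gap. mt-Atp8 had 88.6 CPM in TdLN, 178 CPM in PBMC and 141 CPM in memory, a log2 ratio of -0.67 in TdLN over memory and -1.01 in TdLN over PBMC. mt-Atp6, which lies on the same transcript and overlaps it, had 11384 CPM in TdLN, 9996 CPM in PBMC and 11586 CPM in memory. Reads of overlapping genes cannot be assigned with certainty, so the level of mt-Atp8 is uncertain. Of the others, mt-Nd1 had 2761, 2189 and 2210 CPM, mt-Nd3 1297, 1236 and 971 CPM, mt-Nd4l 245, 258 and 228 CPM and mt-Nd6 27.3, 35.6 and 26.7 CPM in TdLN, PBMC and memory.

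**Figure D3:**
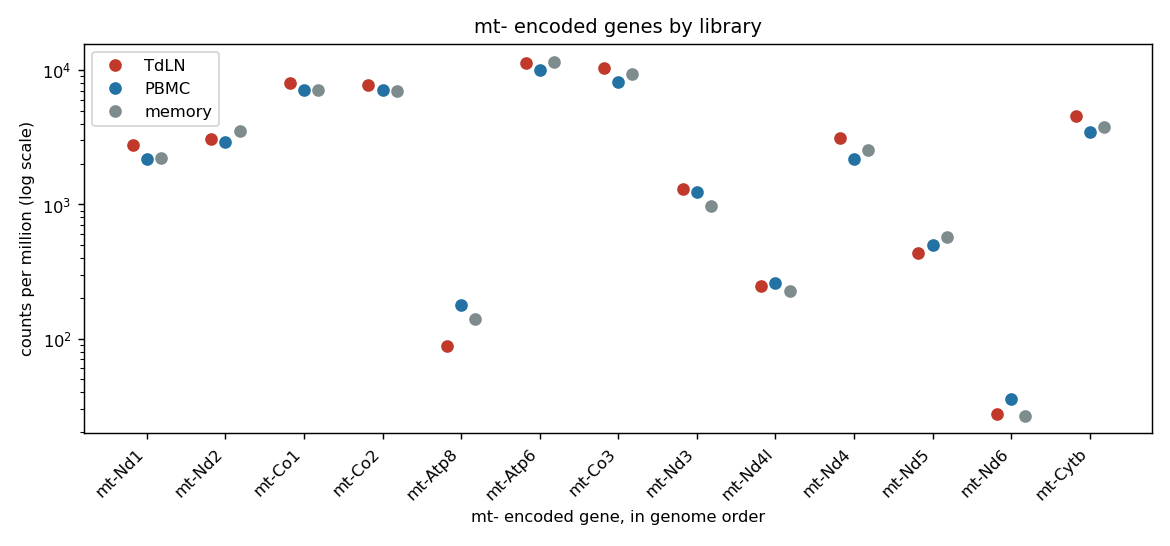
Levels of the 13 mt- encoded protein genes in CPM on a log axis, in genome order, with 1 point each for TdLN, PBMC and memory. mt-Cytb and mt-Nd4 are highest in TdLN, at 4596 and 3152 CPM, and mt-Atp8 is lowest in TdLN, at 88.6 CPM.

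Set complex by complex against the mt- encoded genes, nuclear counts per mt- encoded count were highest in PBMC for each complex that both genomes encode, at the limit of 10%. Complex I had 0.494 nuclear counts per mt- encoded count in TdLN, 0.610 in PBMC and 0.513 in memory. Complex III had 0.429 in TdLN, 0.560 in PBMC and 0.452 in memory. Complex IV had 0.206 in TdLN, 0.252 in PBMC and 0.207 in memory, and complex V 0.522 in TdLN, 0.588 in PBMC and 0.442 in memory. TdLN was thus below memory for complexes I and III and above it for complex V. The limit of 10% mt- encoded counts caps these values; it removed 889 TdLN, 136 PBMC and 675 memory barcodes. With a limit of 5% the mt- encoded log2 ratio of TdLN over memory was -0.0050 in place of 0.12.

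Members with longer coding sequences had the higher ratios in TdLN. Length classes were chosen after the values were seen. In TdLN over memory, the 36 tested members with coding sequences under 400 bases had a median log2 ratio of 0.051, the 35 from 400 to under 900 bases 0.24, and the 11 of 900 bases and over 0.36. The other genes of the same classes had medians of 0.064, 0.18 and 0.18. In TdLN over PBMC the members' medians were -0.096, 0.088 and 0.23 and those of the other genes -0.046, 0.078 and 0.17. In PBMC over memory no such order was seen, with members' medians of 0.16, 0.21 and 0.14. Of the 36 short members 28 are accessory and 1 is a core or F1 subunit, and of the 11 longest 6 are core or F1 subunits and 5 accessory subunits. The middle class holds 10 core or F1 subunits with a median of 0.40 and 14 accessory subunits with a median of 0.17 in TdLN over memory, and in the longest class those medians were 0.43 and 0.32. The accessory subunits of the longest class include Uqcrc1 and Uqcrc2, the matrix-side core proteins of complex III.

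**Figure D4:**
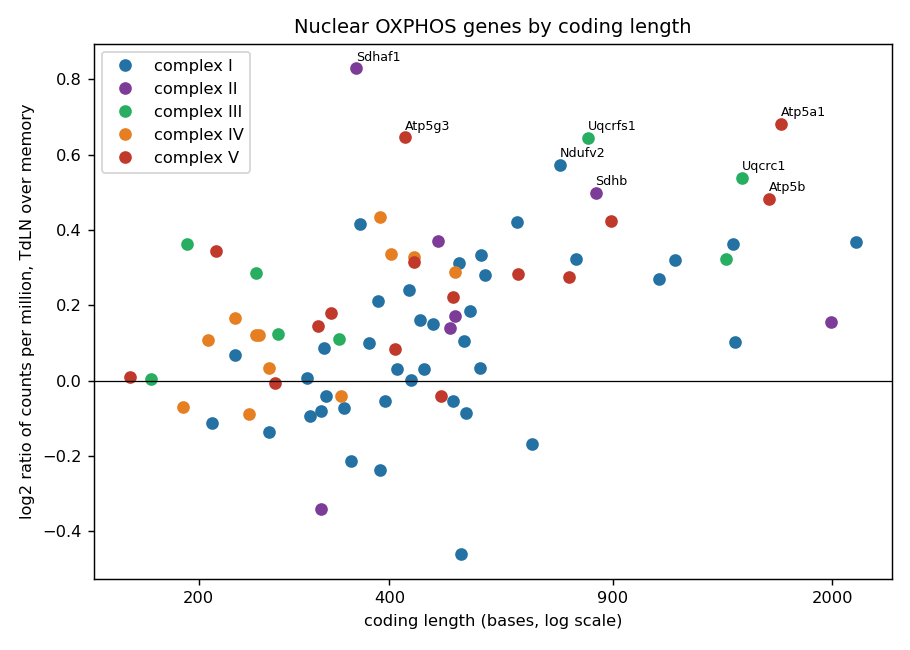
The log2 ratio of CPM in TdLN over memory of 81 of the 82 tested members against the length of the longest coding sequence in bases (log axis), coloured by complex. The members shown with 900 bases and over lie above 0, and the median of all 11 of that length is 0.36.

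Cells with UMIs of cell division genes gave a larger share of their counts to the members. The list held 12 genes, such as Mki67 and Top2a, and cells with at least 3 UMIs of it numbered 549 in TdLN, 312 in PBMC and 114 in memory. In TdLN these cells had 26538 CPM of the members, against 17487 CPM in the other TdLN cells, 1.52-fold higher (1.51 to 1.52). In PBMC they had 22543 CPM, against 19356 CPM in the other PBMC cells, and in memory 18802 CPM, against 17212 CPM. The mt- encoded genes had 50703 CPM in the dividing and 53937 CPM in the other TdLN cells, 46749 and 45204 CPM in PBMC, and 47630 and 49118 CPM in memory. Among TdLN cells of 10000 to under 20000 UMIs, the mt- encoded genes had 52756 CPM at 11 or more division UMIs and 51463 CPM at 0. In dividing over other TdLN cells, 67 of 82 members were higher and 1 was lower, where 39.6% of all genes were higher and 16.6% lower. In PBMC 18 of 82 were higher and 0 lower, where 13.3% and 2.28% of all genes were.

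The excess grew with the number of division UMIs. TdLN cells with 0, 1 to 2, 3 to 10 and 11 or more such UMIs (3839, 1877, 222 and 327 cells) had 17343, 17753, 21892 and 28222 CPM of the members. In PBMC (3308, 2032, 277 and 35 cells) the levels were 19105, 19771, 21367 and 27708 CPM, and in memory (5185, 1704, 100 and 14 cells) 17192, 17267, 18243 and 21544 CPM. In the highest class the log2 ratio of TdLN over PBMC was 0.027, and the libraries differed in how many such cells they held. Dividing cells hold more RNA, with medians of 26860, 16385 and 18084 UMIs in the highest class of TdLN, PBMC and memory. Among cells of 10000 to under 20000 UMIs the highest class had 25369 CPM in TdLN, 28325 CPM in PBMC and 21340 CPM in memory. Cells without a division UMI had 17777, 17689 and 17104 CPM. The highest class then held 71, 21 and 10 cells. Depth was not equal, with medians of 16228, 14742 and 18084 UMIs against 11435, 12653 and 11295 in cells without a division UMI.

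The members differed in this excess. Ndufb8, an accessory subunit of complex I, had 229 CPM in dividing and 107 CPM in other TdLN cells, a ratio of 2.15, the highest of those tested, and was chosen after its values were seen. Atp5g3 had 389 CPM in dividing and 191 CPM in other TdLN cells. Cox5b had 600 CPM in dividing and 295 CPM in other TdLN cells. Uqcrh was flat, at 734 CPM in dividing and 737 CPM in other TdLN cells. Cox7a2l, the member called lower, had 470 CPM in dividing and 615 CPM in other TdLN cells, and Ndufaf4 had 34.4 and 42.6 CPM. Complexes IV and V were 1.57-fold and 1.58-fold higher in the dividing cells, complexes I, II and III 1.44-fold, 1.47-fold and 1.40-fold.

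Without the cells of 3 or more division UMIs the members' log2 ratio was 0.023 in TdLN over memory, against 0.17 in PBMC over memory and -0.15 in TdLN over PBMC. In TdLN over memory 8 members were then higher and 2 lower, where 25.1% and 11.6% of all genes were. Among those higher were Ndufv2, Sdhaf1, Uqcrfs1, Uqcrc1, Cox7a2l, Atp5a1 and Atp5g3, and those lower Ndufaf4 and Ndufa5. Uqcrfs1 had 121 CPM in the remaining TdLN cells and 83.6 CPM in the remaining memory cells. The genes that were higher include the 2 complex III genes with the highest ratios and the alpha subunit of the ATP synthase.

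**Figure D5:**
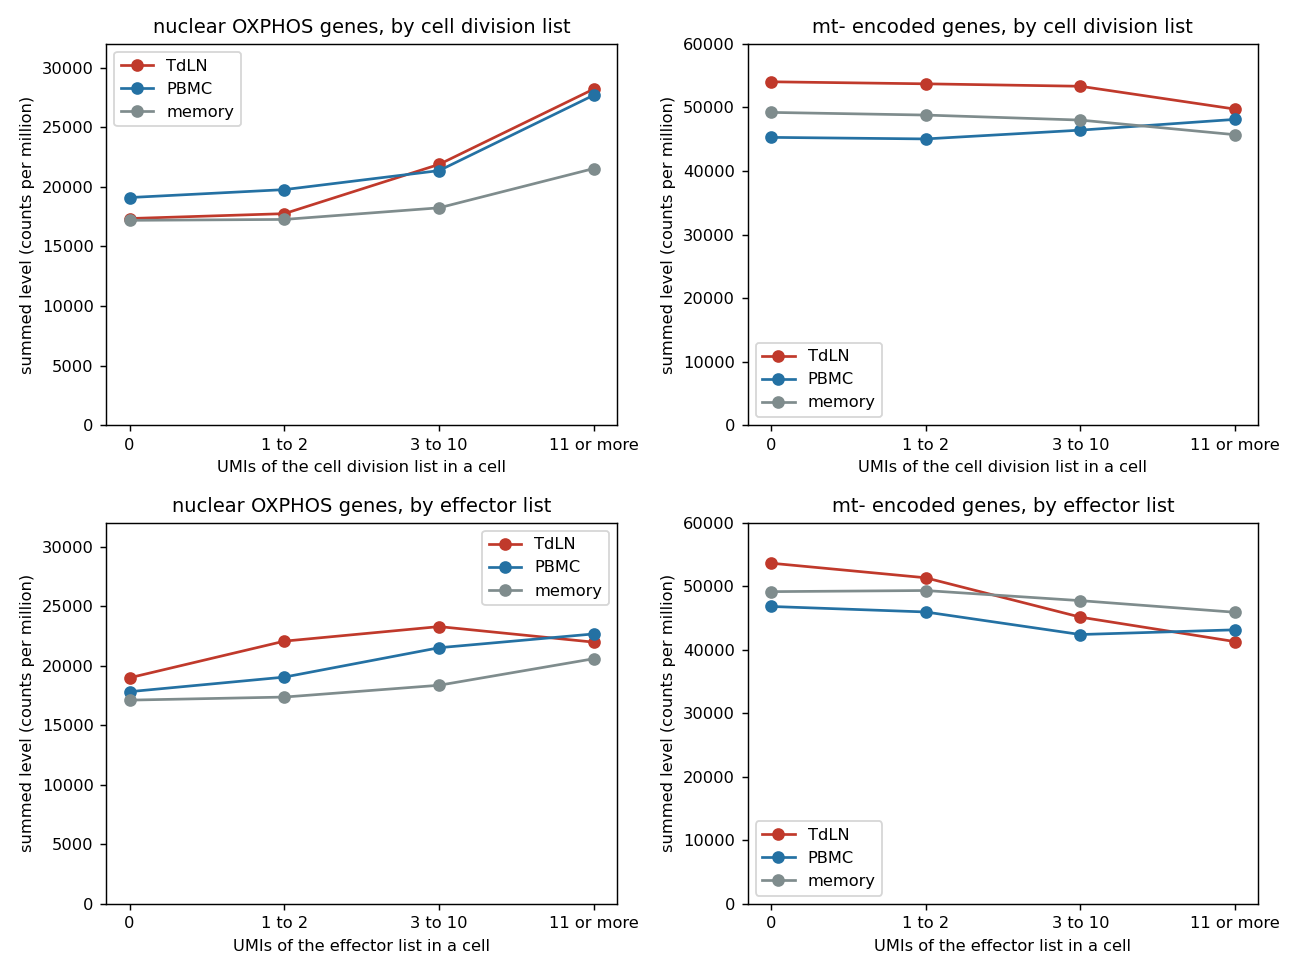
Summed levels in CPM of the nuclear members (left) and mt- encoded genes (right) by the number of UMIs of the cell division list (top) and of the effector list (bottom) in a cell, for TdLN, PBMC and memory. Nuclear levels climb with division UMIs in all 3 libraries, to 28222 CPM in TdLN. With effector UMIs they climb in PBMC, to 22661 CPM, and in memory, to 20581 CPM. In TdLN they were 18976 CPM at 0, 23277 CPM at 3 to 10 and 21970 CPM at 11 or more effector UMIs. The mt- encoded level is lower in the highest than in the lowest division class in TdLN and memory, and higher in PBMC, at 48129 CPM.

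PBMC cells that express effector genes gave a larger share of their counts to the members than the other PBMC cells, and held fewer UMIs. The effector list held Gzma, Gzmb, Cx3cr1, Klrg1, Zeb2 and S1pr5, and at least 3 of its UMIs were found in 2803 PBMC cells but in 95 TdLN and 441 memory cells; the memory sort removed KLRG1+ cells. In PBMC these cells had 22278 CPM of the members, against 18120 CPM in the other PBMC cells, 1.23-fold higher (1.22 to 1.23), while mt- encoded genes had 42891 CPM against 46597 CPM. Complexes I and II were 1.29-fold and 1.31-fold higher there and complex III 1.14-fold. Of 82 members 45 were higher and 2 lower, where 63.6% of all genes were higher and 7.60% lower. The members' median log2 ratio was 0.34, below the 0.44 of all genes tested. The 2 lower were Cox7a2l and Atp5g2. Atp5h was 1.87-fold higher in these cells than in the other PBMC cells. The summed members were also higher in effector than in other cells of TdLN, 1.19-fold, and of memory, 1.08-fold.

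PBMC cells with 11 or more effector UMIs had a median of 5139 UMIs, and those with none had 11906. Among PBMC cells of 5000 to under 10000 UMIs the members had 22944 CPM at 11 or more effector UMIs and 18442 CPM at 0. In memory cells of the same UMI range the levels were 21305 CPM at 11 or more (39 cells) and 17244 CPM at 0. In TdLN they were 17832 CPM (22 cells) and 16901 CPM. Depth was not equal within the range. Median UMIs at 11 or more and at 0 were 5690 and 8480 in PBMC and 5781 and 8716 in memory. In TdLN they were 7862 and 8485. Without effector cells the members' log2 ratio was 0.079 in PBMC over memory, and 4 members were higher and 2 lower, where 8.03% and 23.8% of all genes were.

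Cells with at least 1 UMI each of Tcf7 and Ccr7, genes of naive-like and central memory cells, numbered 4184 in TdLN, 2152 in PBMC and 2468 in memory. In them the members reached 19602 CPM in TdLN and 17790 CPM in PBMC, against 16996 CPM in memory, log2 ratios of 0.21 and 0.066 over memory and 0.14 for TdLN over PBMC. In TdLN over memory 32 of 82 members were higher and 2 lower, where 35.5% and 11.4% of all genes were. In PBMC over memory 3 were higher and 4 lower (7.95% and 26.5% of all genes), and in TdLN over PBMC 23 were higher and none lower (48.4% and 4.38% of all genes). The dividing TdLN cells were not removed from this class, and depth was not matched between the libraries. UMIs of both genes are more readily found in a cell with many UMIs.

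Per cell, the members took a median of 1.72% of UMIs in TdLN, 2.02% in PBMC and 1.71% in memory, with quartiles of 1.56% and 1.92%, 1.73% and 2.31%, and 1.57% and 1.86%. After each cell was thinned to 4200 UMIs, which left out 198 TdLN, 504 PBMC and 276 memory cells, the variance of member UMIs over their mean was 3.84 in TdLN, 3.58 in PBMC and 2.01 in memory. Cells of TdLN and PBMC therefore spread more widely than memory cells. A median of 42 members was detected per thinned cell in TdLN, 44 in PBMC and 41 in memory. Within a library, nuclear and mt- encoded UMIs of thinned cells were weakly related, with Spearman values over cells of -0.14 in TdLN, -0.11 in PBMC and -0.063 in memory.

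Median log2 ratios in TdLN over memory were 0.38 for the citrate cycle list, 0.39 for carriers, porins and import, 0.14 for respiratory parts outside the rule and 0.017 for mitochondrial gene expression, beside 0.15 for the members and 0.17 for all genes tested. All genes tested were higher and lower in 32.2% and 11.1% of cases in TdLN over memory, 14.7% and 10.7% in PBMC over memory, and 27.6% and 10.6% in TdLN over PBMC. Of the citrate cycle and pyruvate dehydrogenase genes, 9 of 16 tested were higher and none lower in TdLN over memory, 1 of 15 was higher in PBMC over memory, and 9 of 16 were higher in TdLN over PBMC. Mdh2, the malate dehydrogenase of the matrix, had 176 CPM in TdLN, 121 CPM in PBMC and 112 CPM in memory. Idh2, an NADP-linked isocitrate dehydrogenase, had 31.5 CPM in TdLN, 19.3 CPM in PBMC and 9.26 CPM in memory. Of carriers, porins and import genes, 8 of 14 were higher in TdLN over memory, none of 14 in PBMC over memory and 4 of 14 in TdLN over PBMC, with none lower. Slc25a5, the ADP/ATP carrier that exchanges the product of complex V, had 445 CPM in TdLN, 302 CPM in PBMC and 248 CPM in memory.

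Respiratory chain parts outside the rule were mixed, with 4 higher and 3 lower of 20 in TdLN over memory, 4 and 2 of 19 in PBMC over memory and 3 and 3 of 20 in TdLN over PBMC, set against the same shares of all genes. Cyc1, the cytochrome c1 that works with Uqcrfs1, had 89.7 CPM in TdLN, 65.5 CPM in PBMC and 68.5 CPM in memory. Cox17, a copper chaperone of complex IV, was lowest in TdLN, with 156 CPM in TdLN, 296 CPM in PBMC and 242 CPM in memory. Atpif1, the inhibitor of the ATP synthase, was in no list and was looked up for its role; it had 94.2 CPM in TdLN and 84.7 CPM in PBMC, against 57.8 CPM in memory. Of the mitochondrial gene expression list only 4 of 17 genes reached 20 CPM in TdLN over memory, with 1 higher (Nrf1) and 1 lower (Mterf1a), where 32.2% and 11.1% of all genes were. Nrf1, the factor whose motif was searched above, had 27.3 CPM in TdLN, 19.6 CPM in PBMC and 18.5 CPM in memory, and Tfam had 45.4, 47.4 and 51.4 CPM.

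Other cells were few. Markers of B cells (6 genes) summed to 76.1, 12.3 and 6.83 CPM in TdLN, PBMC and memory, and those of macrophages, monocytes or dendritic cells (10 genes) to 306, 102 and 92.5 CPM. Platelet or erythroid markers (7 genes) had 5.09, 33.5 and 1.80 CPM, neutrophil markers (3 genes, all at 0 in PBMC) 0.690, 0 and 0.171 CPM, melanoma markers (4 genes) 0.216, 0.143 and 0.0998 CPM and stroma markers (4 genes) 38.8, 18.4 and 18.7 CPM. Without the cells holding 3 or more UMIs of the whole lists (1562 TdLN, 862 PBMC and 851 memory cells), the members' log2 ratios were 0.060 in TdLN over memory, against 0.19 in PBMC over memory and -0.13 in TdLN over PBMC, and 11 members were higher in TdLN over memory (26.0% of all genes). Cst3, a marker on these lists, had 85.4 CPM in TdLN, 90.1 CPM in PBMC and 87.0 CPM in memory, and a shorter list of defining markers was added after the data were seen. Without the cells holding 3 or more UMIs of those (201 TdLN, 147 PBMC and 19 memory cells), the members' log2 ratios were 0.15, 0.18 and -0.028 in TdLN over memory, PBMC over memory and TdLN over PBMC. Dissociation and AP-1 genes moved with TdLN, at 1445 CPM in TdLN, 496 CPM in PBMC and 379 CPM in memory over 8 genes, and their part in the result was not tested. Of the 97 IDs, 23 have a pseudogene that shares 75 bases with their 3' end, 29 overlap an exon on the other strand and 5 an exon on the same strand.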

How the data were processed

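Sorted P14 CD8 T cells were profiled by Chromium 3' sequencing in 3 libraries. Deposited files hold raw UMI counts (whole numbers) for every gene in every barcode. Per the submitters' processing notes, Cell Ranger 3.1.0 and mm10 were used. Barcodes had been called as cells before deposit (7503 TdLN, 6165 PBMC, 8321 memory). Cells below 500 genes or above 10% mt- encoded counts were left out, and no doublet caller was run. Counts were summed per library and scaled to the total. Members needed 20 CPM in the higher library and a 25% difference to be counted. Positions, coding lengths and overlaps came from GENCODE M21 (GRCm38). Python 3.11.15, scipy 1.17.1 and edgeR 4.0.16 (TMM factors only) were used, and ratios were checked on simulated data.

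The named genes were, per comparison, the 4 highest and 4 lowest members that reach 50 CPM, the member with the most counts of each complex, tissue isoforms, subunit c genes, the mt- encoded genes and members that went against their complex sum by 1.25-fold. Other genes named were chosen after their values were seen. The members, lists and rules were chosen with earlier results of these data known. Alternatives changed cell limits, scaling, weighting, depth, minimum, fold and the cells left out; those on defining markers and on 11 division UMIs were added after seeing the data. The values of 1 member named by the rule are not reported here.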

Additional observations from a re-analysis of the deposited data

Results flagged for a closer look

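The members' difference between TdLN and PBMC had opposite signs in cells with and without division genes. In cells with 3 or more division UMIs the log2 ratio of TdLN over PBMC was 0.24, and in the other cells it was -0.15. Division UMIs were unevenly spread within the first class, where 327 of 549 TdLN cells and 35 of 312 PBMC cells held 11 or more. At 3 to 10 division UMIs the members had 21892 CPM in TdLN and 21367 CPM in PBMC, and at 11 or more 28222 and 27708 CPM. Among cells of 10000 to under 20000 UMIs they had 21541 CPM in TdLN and 20924 CPM in PBMC at 3 to 10. At 11 or more they had 25369 and 28325 CPM (71 and 21 cells). The same comparison turned round between cells with Tcf7 and Ccr7 UMIs, at 0.14, and cells without both, at -0.27. For the mt- encoded genes the log2 ratio of TdLN over memory was -0.13 in cells with effector UMIs, of which TdLN held 95, and 0.12 in the other cells. With 1 library per group, none of these differences was tested.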

How the results depend on the processing

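No paired analysis was possible because each group is 1 library. Values are log2 ratios in the order TdLN over memory, PBMC over memory and TdLN over PBMC. Sums are given where they moved by more than the counting interval, and counts of members where they moved by over 1.5 times. Shares of all genes tested in the same setting follow in brackets, in the same order. The cause of each move was not tested. With a mitochondrial limit of 5%, the members gave 0.22, 0.18 and 0.039 and the mt- encoded genes gave -0.0050, -0.088 and 0.083. Members counted were 1 lower in TdLN over memory (12.4%) and 15 higher in TdLN over PBMC (29.3%). With a limit of 20%, the mt- encoded genes gave 0.11, -0.13 and 0.25. With TMM scaling, the members gave 0.0020, 0.17 and -0.17 and the mt- encoded genes gave -0.032, -0.13 and 0.097. Members counted were 9 higher and 4 lower in TdLN over memory (18.5% and 19.3%). In TdLN over PBMC 2 were higher and 11 lower (16.0% and 18.9%). With totals that leave out mt-, ribosomal protein genes and Gm42418, the members gave 0.054, 0.087 and -0.034 and the mt- encoded genes gave 0.019, -0.21 and 0.23. Members counted were 11 higher in TdLN over memory (21.8%) and 0 higher in PBMC over memory (8.61%). With equal weight per cell, the members gave 0.066, 0.24 and -0.18 and the mt- encoded genes gave 0.14, -0.15 and 0.29. Members counted were 10 higher and 1 lower in TdLN over memory (27.5% and 11.5%), and 21 higher in PBMC over memory (24.7%). Counts were 1 higher and 15 lower in TdLN over PBMC (20.3% and 18.6%). With cells thinned to 4200 UMIs, the members gave 0.053, 0.23 and -0.18 and the mt- encoded genes gave 0.15, -0.15 and 0.29. Members counted were 10 higher in TdLN over memory (26.9%) and 19 higher in PBMC over memory (23.1%). Counts were 1 higher and 16 lower in TdLN over PBMC (20.3% and 17.6%). Without cells with 3 or more UMIs of the lists of other cell types, in which Cst3 had 85.4, 90.1 and 87.0 CPM in TdLN, PBMC and memory, the members gave 0.060, 0.19 and -0.13 and the mt- encoded genes gave 0.14, -0.12 and 0.26. Members counted were 11 higher in TdLN over memory, 2 higher and 7 lower in TdLN over PBMC. Without division cells, the members gave 0.023, 0.17 and -0.15 and the mt- encoded genes gave 0.14, -0.12 and 0.25. Members counted were 8 higher in TdLN over memory (25.1%), and 1 higher and 7 lower in TdLN over PBMC (22.9% and 11.9%). Without effector cells, the members gave 0.079 in PBMC over memory and 0.077 in TdLN over PBMC and the mt- encoded genes gave 0.12, -0.078 and 0.20. Members counted were 4 higher and 2 lower in PBMC over memory, 14 higher and 0 lower in TdLN over PBMC. Without the 5% of cells with most UMIs, the members gave 0.048 in TdLN over memory and -0.14 in TdLN over PBMC and the mt- encoded genes gave 0.13, -0.12 and 0.26. Members counted were 8 higher in TdLN over memory (26.5%), and 1 higher and 7 lower in TdLN over PBMC (21.7% and 12.9%). Without cells of 11 or more division UMIs, the members gave 0.042, 0.18 and -0.13 and the mt- encoded genes gave 0.13 in TdLN over memory and 0.25 in TdLN over PBMC. Members counted were 8 higher and 1 lower in TdLN over memory (26.1% and 11.5%). In TdLN over PBMC 1 was higher and 6 were lower (23.2% and 11.8%). With a minimum of 100 CPM, members counted were 15 higher and 0 lower in TdLN over memory, 0 lower in PBMC over memory, 3 higher in TdLN over PBMC. At 1.5-fold, members counted were 5 higher and 0 lower in TdLN over memory (12.7% and 5.23%). In PBMC over memory 0 were higher and 0 lower (4.47% and 3.63%), as in TdLN over PBMC (10.4% and 4.17%). With no minimum beyond 1 count, members counted were 11 higher in PBMC over memory, 5 lower in TdLN over PBMC. Shares of all genes are not given at this minimum or at 100 CPM. A minimum of 1000 genes, and leaving out cells with defining markers of other cell types, moved none of these sums or counts so far. For the sums of single complexes, 120 values moved past their interval and 75 did not. Of the 2 totals, those with a change of sign were the mt- encoded genes in TdLN over memory (5% limit, TMM) and the members in TdLN over PBMC (5% limit, no effector cells). Of the 15 sums of single complexes, 8 changed sign in at least 1 of 13 settings: in TdLN over memory complex I in 8 (lowest -0.080) and IV in 1; in PBMC over memory complex II in 1 (-0.032); in TdLN over PBMC complex I in 1 (0.069), II in 1 (-0.018), III in 7 (lowest -0.10), IV in 2 (highest 0.038) and V in 9 (lowest -0.16). Counts limit members under 20 CPM, and the spread between animals is unknown.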
